A study of Homo sapiens with 24 samples.

Results

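Gene expression in MCF-10A MYC-ER cells was compared between 24 h and 8 h of treatment with 4-hydroxytamoxifen (4-OHT). MCF-10A is an immortalised, non-tumorigenic line of human mammary epithelial cells, and MYC-ER is the transcription factor MYC fused to an oestrogen receptor portion that keeps the protein inactive until 4-OHT binds. The comparison was defined by the labels alone and used 6 of the 24 libraries of the series, 3 from MYC-ER cells given 1 µM 4-OHT for 8 h and 3 from MYC-ER cells given it for 24 h. The cells were grown in 3D culture on growth factor-reduced Matrigel, a basement membrane gel, and 4-OHT was added at different times so that every culture was collected on day 5. The 8 h and 24 h libraries therefore came from separate wells of the same age. The same contrast in MCF-10A cells without the fusion protein, here called parental cells, used 6 further libraries (3 after 8 h and 3 after 24 h of 1 µM 4-OHT). Whether the MYC-ER line is 1 clone or a pool, and the species of the receptor part, are not given in the sources used here. The series also holds both lines without 4-OHT (0 h) and after 48 h of 1 µM 4-OHT, whose levels are given near the end. The spread behind the p-values was estimated from all 24 libraries in 8 groups, not only from the groups compared. Replicates are wells seeded in triplicate, so the p-values measure the spread between such wells, which may be technical.

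MYC pairs with MAX on E-box sequences and raises the transcription of genes for ribosome production, nucleotide synthesis and entry into the cell cycle, while MXD proteins compete with it for MAX. When a resting cell enters the cycle, immediate early and growth genes are induced first, DNA replication genes follow under the control of E2F factors, and genes of mitosis come last under the control of the MuvB complex with B-MYB and FOXM1. On Matrigel, MCF-10A cells form hollow spheres called acini and slow their division as the spheres mature.

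The 6 libraries held between 144205617 and 163896449 counts, and 3 counts corresponded to 0.0183 to 0.0208 counts-per-million units (CPM). Spearman correlations over genes were 0.989 to 0.991 within a group and 0.961 to 0.963 between the groups, and no 2 libraries matched within sampling noise. The scaling factors that edgeR computes from the bulk of genes (TMM) were 0.916 to 0.939 at 8 h and 1.05 to 1.08 at 24 h. Markers of mammary basal epithelium were all detected, at a summed 26700 to 29200 CPM at 8 h and 16500 to 17400 CPM at 24 h, with 9 of the 12 markers called lower and 2 higher. Summed markers of luminal cells (650 to 694 and 420 to 436 CPM), fibroblasts (102 to 111 and 81.1 to 92.8 CPM) and blood cells (24.6 to 27.3 and 13.3 to 15.9 CPM) were far lower. Among tested markers 4 of 8 luminal ones rose and 2 fell (median log2 change 0.15), 3 of 6 fibroblast ones rose and 2 fell (0.54), and 3 of 5 of blood cells rose and 2 fell (0.88), so the calls and the summed levels differ in direction. Of 10 listed markers of each type, 2 luminal, 3 fibroblast and 4 blood cell ones were at 0 in all 6 libraries. These included PGR and KIT, PDGFRA and COL3A1, and PTPRC and CD3E. Other markers were detected, such as the fibroblast marker DCN (mean 49.39 CPM at 8 h and 21.45 CPM at 24 h). Endothelial markers summed to 2.37 to 3.07 CPM at 8 h and 2.01 to 2.12 CPM at 24 h, with CDH5 and EMCN at 0. Red cell markers summed to 5.97 to 6.89 CPM at 8 h and 20.3 to 25.2 CPM at 24 h, all but a trace from the near-identical globin genes HBA1 and HBA2, with HBB and ALAS2 at 0. Whether these marker levels bear on the results was not tested.

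At 24 h the MYC-ER cells had more transcripts of DNA replication and mitosis than at 8 h, and fewer of protein folding, ERK feedback, integrin and matrix protease genes. Of 22158 genes tested with edgeR's quasi-likelihood test, 12296 (55.5%) passed an adjusted p of 0.05, 6300 higher at 24 h (28.4%) and 5996 lower (27.1%). A change of 2-fold or more passed for 4733 genes (21.4%): 3221 rose and 1512 fell. The median log2 change over all tested genes was 0.05, and in 14404 genes (65.0%) every 24 h value lay on one side of every 8 h value. Of the called genes 51.2% were higher with the main scaling, 67.8% when only library size was corrected for and 59.7% with upper-quartile scaling. These scalings raised the median of all genes by 0.206 and 0.105 on the log2 scale. Directions below are therefore given relative to the bulk of genes. Several groups with small changes, but not all, are described with their counts under other scalings. Among the rest, library-size scaling gave 16 higher and 3 lower for nucleotide synthesis (12 and 6 with the main scaling). It gave 23 and 3 for cholesterol and fatty acid synthesis (18 and 5), and 5 and 6 for the BCL2 family (4 and 8). In a bulk sample, fewer cells of a kind and less RNA per cell cannot be told apart. Genes were described by function in lists that held 1069 tested genes in all, and the plot of every tested member by list shows cell division at one end and cytokines and chemokines, ERK feedback genes, integrins and matrix proteases at the other.

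**Figure D1:**
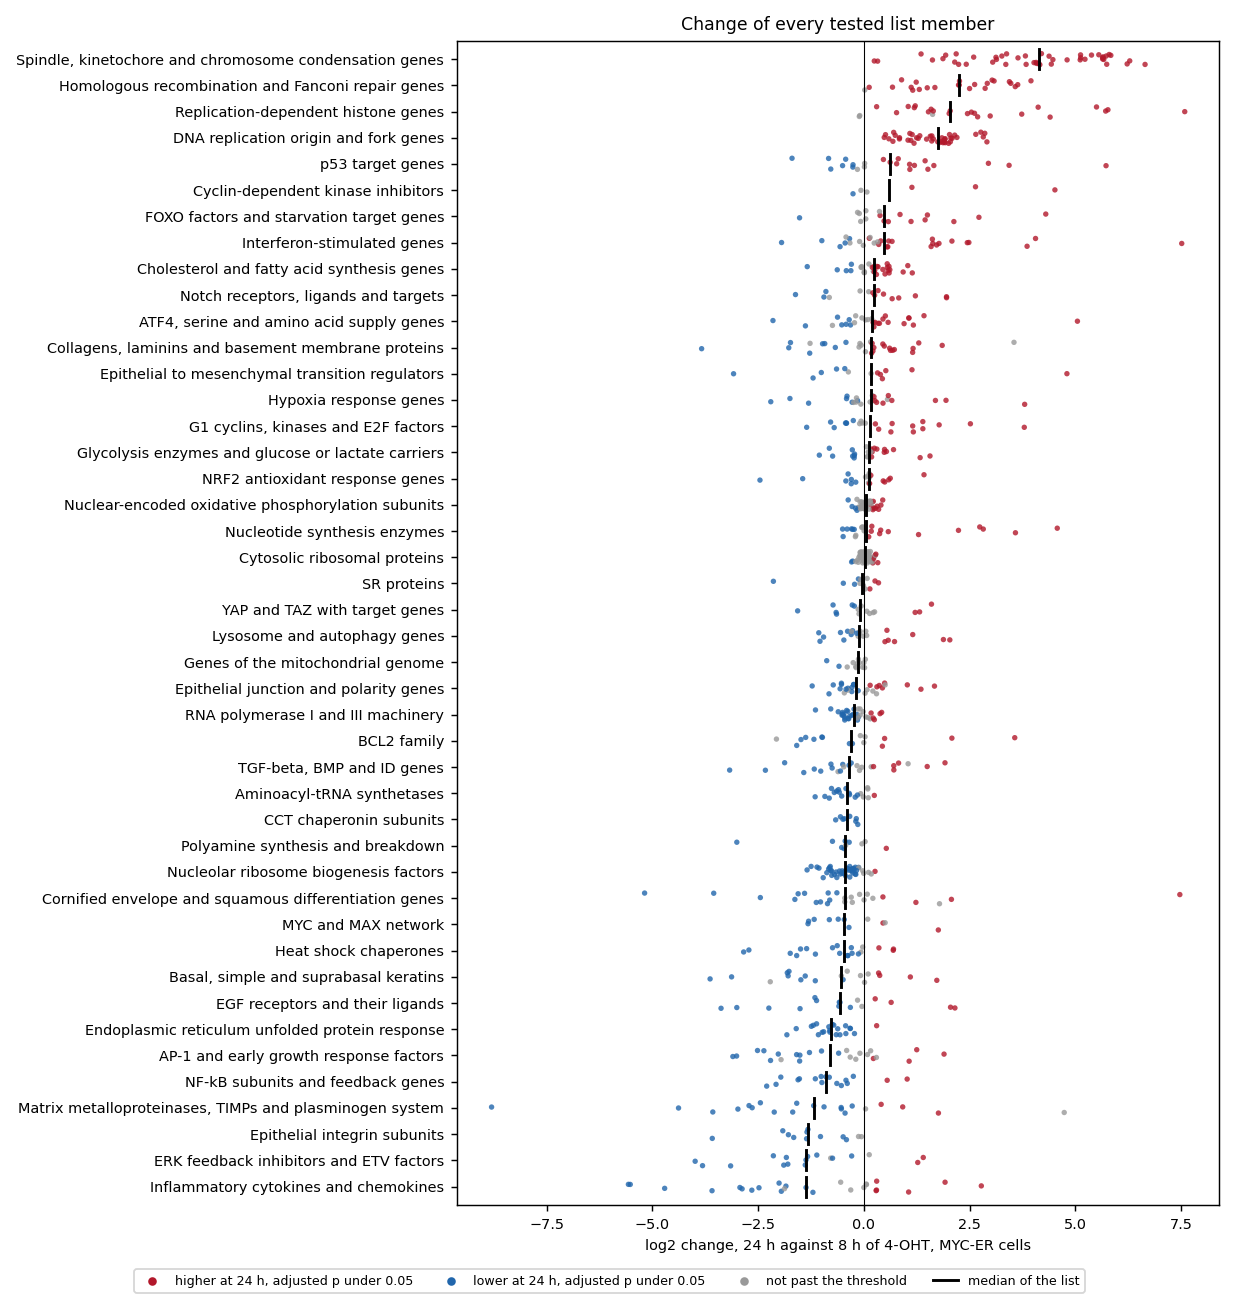
Log2 change from 8 h to 24 h of 4-OHT in MYC-ER cells (horizontal axis) for each tested member of the gene lists (rows), with the median of each list as a bar; red points passed the test higher, blue points lower and grey points did not pass. The spindle list has its median at 4.13 and all 47 points above 0, whereas the integrin list has its median at -1.33 and the ERK list at -1.37.

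Genes of mitosis rose the most. All 47 tested genes of the spindle, kinetochore and chromosome condensation list were higher at 24 h (28.4% of all tested genes were), with a median log2 change of 4.13 against 0.05 over all genes. The mean log2 CPM of the list was 2.49 ± 0.03 at 8 h and 6.50 ± 0.02 at 24 h (SD, n = 3, as for every value written with ±). In parental cells 11 of the 47 rose between the same times (6.48% of all tested genes did), none fell and the median was 0.14, and the change was larger in MYC-ER cells for all 47. CDC25C, the phosphatase that activates the mitotic kinase CDK1, lies at chr5:138285265-138338355 (ENSG00000158402.20) and had 0.217, 0.184 and 0.207 CPM at 8 h and 20.3, 20.1 and 20.9 CPM at 24 h. No value at 8 h came near those at 24 h, but the gene was chosen among those without overlap. Its log2 change was 6.65 (100.0-fold, SE 0.131, adjusted p = 4.04e-20 by edgeR's quasi-likelihood test), beside 12.8 ± 0.206 CPM at 8 h and 13.7 ± 0.603 CPM at 24 h in parental cells. HMMR, a spindle protein that also binds hyaluronan, lies at chr5:163460632-163491941 and had 1.74, 1.48 and 1.41 CPM at 8 h and 123, 120.3 and 119 CPM at 24 h. It was 78.1-fold higher (log2 6.29, SE 0.133, adjusted p = 1.03e-19 by the same edgeR test), with 66.3 ± 3.22 CPM at 8 h and 74.4 ± 1.84 CPM at 24 h in parental cells. TOP2A, the topoisomerase that untangles sister chromosomes, had 4.58, 5.12 and 4.12 CPM at 8 h and 359, 330.5 and 345 CPM at 24 h (log2 6.23). MKI67, whose product coats mitotic chromosomes and serves as the usual proliferation marker, had 5.97, 6.42 and 6.01 CPM at 8 h and 381, 364 and 369.6 CPM at 24 h (log2 5.92). TOP2A and MKI67 also rose in parental cells, by 0.46 and 0.37 on the log2 scale (adjusted p = 0.00573 and 0.00285 by edgeR).

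The kinases that drive mitosis moved in the same direction as their partners. CDK1 rose from 6.67 ± 0.559 CPM to 112 ± 2.83 CPM (SD, n = 3) and its partner CCNB1, cyclin B1, from 19.5 ± 1.27 CPM to 188 ± 2.24 CPM. PLK1, the kinase of centrosome maturation, had 2.55, 2.70 and 2.61 CPM at 8 h and 133, 134 and 131 CPM at 24 h, a log2 change of 5.66. AURKB and BIRC5, both of the chromosomal passenger complex, had log2 changes of 4.81 and 5.73. The smallest change in the list was that of the checkpoint protein BUB3, which had 148, 146 and 148 CPM at 8 h and 175, 174 and 174 CPM at 24 h (log2 0.25, adjusted p = 4.36e-05 by edgeR). BUB3 was already abundant at 8 h. Among the 12 largest rises of any gene with at least 10 CPM, most belong to mitosis: DLGAP5 (log2 6.43), a spindle assembly factor, KIF4A (6.05) and KIF20A (5.84), kinesin motors of the spindle midzone, NEK2 (5.86), a centrosome kinase, CDCA3 (6.05) and DEPDC1 (from 1.13 ± 0.0739 CPM to 72.5 ± 0.556 CPM). The first of the 12 was PIF1, a DNA helicase, at chr15:64815632-64827062 (ENSG00000140451.13), with 0.246, 0.177 and 0.167 CPM at 8 h and 21.1, 29.5 and 31.7 CPM at 24 h. PIF1 was 139-fold higher (log2 7.12, SE 0.234, adjusted p = 1.64e-16 by edgeR) and had 20.4 ± 1.24 CPM at 8 h and 17.6 ± 1.84 CPM at 24 h in parental cells, where it did not pass the test.

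Genes of DNA replication rose by less. All 43 tested origin and fork genes were higher, with a median log2 change of 1.75, while 4 rose and none fell in parental cells (median 0.03). The difference between the lines passed for all 43. CDC45, which with MCM and GINS proteins forms the replicative helicase, lies at chr22:19479466-19520612 and had 5.64, 5.81 and 5.45 CPM at 8 h and 43.1, 42.6 and 41.4 CPM at 24 h. It rose 7.52-fold (log2 2.91, SE 0.0710, adjusted p = 1.05e-18 by edgeR) and had 31.5 ± 0.327 CPM at 8 h and 31.9 ± 0.723 CPM at 24 h in parental cells. ORC1, a subunit of the origin recognition complex, rose from 5.90 ± 0.367 CPM to 41.8 ± 0.625 CPM. PCNA, the sliding clamp of the polymerases, had 74.7, 69.7 and 67.2 CPM at 8 h and 181, 177 and 172 CPM at 24 h (log2 1.32). The smallest change was that of the helicase subunit MCM6, with 121, 114 and 118 CPM at 8 h and 171, 160.4 and 160.3 CPM at 24 h (log2 0.48). MCM6 stood above 100 CPM in every 8 h library, whereas CDC45 and ORC1 stood below 10.

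In homologous recombination and Fanconi repair, 23 of 24 tested genes rose and none fell (median 2.26), against 4 higher and 2 lower in parental cells (median 0.13). FANCD2, the central protein of interstrand crosslink repair, had 6.36, 5.99 and 5.59 CPM at 8 h and 73.9, 75 and 74.4 CPM at 24 h (log2 3.64). BRCA1 rose from 11.4 ± 0.164 CPM to 64.5 ± 0.776 CPM. MND1, a recombination factor best known from meiosis, had the list's largest change (3.95). PALB2, which links BRCA1 to BRCA2, was the exception, with 38.6, 39.4 and 40.2 CPM at 8 h and 41.5, 38.4 and 39.9 CPM at 24 h (adjusted p = 0.84 by edgeR). The ranges for PALB2 overlap, and it passed only when counts were scaled by library size alone (adjusted p = 0.0257).

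Of 25 tested replication-dependent histone genes 22 rose and none fell (median 2.04), against 2 and none in parental cells (median -0.13). These transcripts normally lack a poly(A) tail and the libraries were poly(A)-selected, so only a tailed fraction was measured. H2BC12, which stood at 30.00, 26.3 and 27.8 CPM at 8 h and 26.7, 24.8 and 26.6 CPM at 24 h, was one of the 3 that did not pass (adjusted p = 0.351 by edgeR), with H1-2 and H4C3. With at least 10 counts required in every library, 14 histone genes were tested and 12 passed higher (median 1.65).

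The G1 list was mixed, with 11 of 22 tested genes higher and 7 lower, beside 28.4% and 27.1% of all tested genes. E2F8, a repressor of the E2F family that is itself made in S phase, rose from 0.489 ± 0.0929 CPM to 6.79 ± 0.130 CPM, and the activator E2F1 had 9.74, 9.31 and 9.24 CPM at 8 h and 19.3, 21.9 and 21.8 CPM at 24 h (log2 1.15). CCNE2, cyclin E2, had 6.0, 6.46 and 5.0 CPM at 8 h and 17.1, 16.8 and 11.9 CPM at 24 h (log2 1.40), and the phosphatase CDC25A rose by 0.67. Of the early G1 cyclins and kinases, CCND2, CCND3 and CDK4 did not pass. CCND1, cyclin D1, had 170.5, 169 and 168 CPM at 8 h and 73.2, 63.4 and 62.4 CPM at 24 h (log2 -1.35) and its kinase CDK6 had a log2 change of -0.79. CCNE1, cyclin E1, was lower by a small amount (log2 -0.25, adjusted p = 0.00238 by edgeR), which did not pass with library-size scaling (-0.05) or upper-quartile scaling (-0.15). Of the 6 tested inhibitors of cyclin-dependent kinases 3 rose. CDKN3, a phosphatase of CDK1 and CDK2 that is itself made late in the cycle, rose from 0.794 ± 0.0566 CPM to 18.2 ± 0.317 CPM. CDKN2C (p18) changed by 2.64 and CDKN1B (p27) by 1.14, to 45.3 ± 0.294 CPM. CDKN1A (p21), which p53 activates, was the 1 that fell, with 231, 199 and 228 CPM at 8 h and 185, 184 and 182 CPM at 24 h (log2 -0.26, adjusted p = 0.000501 by edgeR). The p21 change was -0.05 and did not pass with library-size scaling.

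The promoters of CDC25C and HMMR (mitosis), CDC45 (replication) and LYAR (a nucleolar factor described after them) are shown because the members of these lists moved together. Each is the 150 bases before the first-listed RefSeq start (GRCh38.p14), on the strand of the gene, with capitals for matches to the searched letters on either strand: CACGTG (an E-box), TTTGGCGC or TTTCGCGC (E2F), TTTGAA (the cell cycle homology region, CHR, bound by MuvB) and CCAAT (bound by NF-Y).
CDC25C, chr5:138338356-138338505, minus strand: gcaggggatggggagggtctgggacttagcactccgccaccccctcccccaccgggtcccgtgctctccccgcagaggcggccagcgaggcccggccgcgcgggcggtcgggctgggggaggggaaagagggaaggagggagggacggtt
HMMR, chr5:163460482-163460631, plus strand: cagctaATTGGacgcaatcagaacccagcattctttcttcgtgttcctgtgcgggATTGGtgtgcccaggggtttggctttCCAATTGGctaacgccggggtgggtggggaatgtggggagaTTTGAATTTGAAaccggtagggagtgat
CDC45, chr22:19479770-19479919, plus strand: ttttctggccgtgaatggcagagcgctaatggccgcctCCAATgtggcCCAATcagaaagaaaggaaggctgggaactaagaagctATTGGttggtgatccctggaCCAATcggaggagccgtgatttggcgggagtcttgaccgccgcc
LYAR, chr4:4290155-4290304, minus strand: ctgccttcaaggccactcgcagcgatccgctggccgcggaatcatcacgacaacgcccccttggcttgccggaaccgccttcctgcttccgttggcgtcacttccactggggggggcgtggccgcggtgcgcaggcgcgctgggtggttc
The HMMR sequence holds 2 CHR matches, 28 and 22 bases before the start, and several CCAAT matches. These lie on the gene strand (CCAAT, 69 bases before the start) and on the other strand (read as ATTGG). The CDC45 start used lies inside the span listed for the gene, and its sequence holds CCAAT matches and no CHR match. The CDC25C and LYAR sequences hold none of the searched letters, and the starts used are the outermost ends of their listed spans. Only the first-listed start of each gene was searched, so letters near any other start of the same gene were not counted. In the 250 bases before the start, TTTGAA occurred in 21 of the 40 spindle genes with an entry (52.5%) and in none of 37 replication genes. The same letters occurred in 6 of 23 histone genes (26.1%), 3 of 21 recombination and Fanconi genes (14.3%) and 4 of 41 nucleolar genes (9.76%). The shares were 13.6% of all 27305 genes in the table and 9.14% of 13236 tested genes. CCAAT occurred in 70.0% of spindle genes, 56.8% of replication genes and 20 of 23 histone genes (87.0%), but in 36.6% of 41 nucleolar genes, against 33.0% of all genes. The E2F letters occurred in 5 of the 37 replication genes (13.5%), 6 histone genes (26.1%) and no spindle gene, against 0.996% of all genes. CACGTG occurred in 6 of the spindle genes (15.0%), 6 replication genes (16.2%) and 6 nucleolar genes (14.6%), against 6.49% of all genes and 8.51% of tested genes. In the nearest 100 bases it occurred in no spindle gene, 6 replication genes (16.2%) and 4 nucleolar genes (9.76%), against 4.55% of tested genes. These matches are a description of letters and were not tested as binding sites.

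Transcripts of MYC itself fell. The MYC row had 795, 793 and 797 CPM at 8 h and 329.5, 322 and 312 CPM at 24 h, and the 24 h values lay far below those at 8 h. The log2 change was -1.31 (2.47-fold lower, SE 0.0681, adjusted p = 4.13e-13 by edgeR), while parental cells had 463 ± 17.5 CPM at 8 h and 506 ± 14.1 CPM at 24 h (adjusted p = 0.232), and the changes differed between the lines by -1.44. Whether reads of the MYC-ER transgene fall in this row was not tested. ESR1, the oestrogen receptor gene, had 0 to 5 counts per library at 8 h and 17 to 40 at 24 h (0, 0.0355 and 0 CPM at 8 h and 0.233, 0.107 and 0.211 CPM at 24 h), and passed the test (adjusted p = 3.16e-05 by edgeR) on these few counts. MAX, the partner of MYC, fell from 73 ± 3.05 CPM to 41.4 ± 2.11 CPM. In the whole MYC and MAX network 7 of 11 tested genes fell, 2 rose and the median was -0.46. The competitors of MYC divided: MXD1 fell from 75.1 ± 3.89 CPM to 33.2 ± 0.903 CPM, whereas MXD3, a member expressed in S phase, had 3.21, 3.19 and 2.91 CPM at 8 h and 10.1, 10.9 and 10.6 CPM at 24 h (log2 1.76) and MXI1 changed by 0.45. MLX, the partner of the glucose-sensing MLXIP, fell by the most (-1.32).

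Genes of ribosome production were lower at 24 h. Of 49 tested nucleolar biogenesis factors 43 fell and 1 rose (27.1% and 28.4% of all tested genes did), with a median log2 change of -0.44. In parental cells 5 fell and 1 rose, with a median of -0.02. Scaling by library size alone left 28 lower and 5 higher, and upper-quartile scaling 35 and 3. LYAR, a nucleolar factor of ribosomal RNA processing and the largest fall of the list, lies at chr4:4267701-4290154 and had 137, 133 and 132 CPM at 8 h and 55.7, 51.1 and 51.6 CPM at 24 h. It fell 2.54-fold (log2 -1.34, SE 0.0691, adjusted p = 3.35e-13 by edgeR), beside 78.4 ± 0.403 CPM at 8 h and 78.9 ± 5.77 CPM at 24 h in parental cells. RRS1, an assembly factor of the large subunit, fell from 61 ± 0.826 CPM to 25.7 ± 1.76 CPM. FBL, the methyltransferase fibrillarin, was the 1 that rose, with 255, 228 and 248 CPM at 8 h and 296, 288 and 293 CPM at 24 h (log2 0.26, adjusted p = 0.0234 by edgeR), and it did not pass without 8 h replicate 2 (adjusted p = 0.103), 24 h replicate 1 (0.0566) or 24 h replicate 3 (0.0535). NPM1, NHP2, RCL1, GNL2 and NOB1 did not pass. Of 34 tested genes of the polymerase I and III machinery 21 fell and 5 rose (3 without 8 h replicate 2; median -0.24), or 12 and 8 with library-size scaling. POLR1G, a polymerase I subunit, fell from 54 ± 5.07 CPM to 24.4 ± 1.36 CPM, and POLR3GL, a polymerase III subunit of resting and differentiated cells, rose from 7.85 ± 0.294 CPM to 10.5 ± 0.454 CPM.

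Messenger RNAs of the ribosomal proteins themselves had small changes, between -0.29 and 0.33 on the log2 scale. Of 75 tested genes 5 rose, 2 fell and the median was 0.03. The 5 were RPLP0, RPSA, RPS9, RPS3 and RPL6, and the 2 were RPLP1 and RPS4X. RPLP0, a stalk protein, changed by 0.33 and its neighbour in the stalk RPLP1 by -0.29 (adjusted p = 0.00449 and 0.0175 by edgeR), and RPLP1 did not pass with library-size scaling (-0.08). RPS9, RPS3 and RPL6 did not pass without 8 h replicate 2, and leaving out any single library but 8 h replicate 1 left 2 or 3 of the 5 rises. The counts depend on the scaling and the fit: with library size alone 58 passed higher and none lower, with upper-quartile scaling 14 and none, and when only the 2 groups compared were fitted 22 and 6 (21 and 6 with the replicate block). Removing the trend with GC content gave 12 higher, and requiring at least 10 counts in every library 9.

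Other biosynthetic groups that MYC is known for did not move as 1 block. Of 20 tested aminoacyl-tRNA synthetases 14 fell and 1 rose (median -0.39), or 12 and 6 with library-size scaling. WARS1, which charges tryptophan, had 113, 109 and 114 CPM at 8 h and 51.2, 50.1 and 49.6 CPM at 24 h (log2 -1.15), and QARS1, which charges glutamine, was the 1 that rose (0.25). Of 24 tested enzymes of nucleotide synthesis 12 rose and 6 fell. Those that rose by the most make deoxynucleotides: TK1, thymidine kinase, had 2.55, 2.19 and 2.26 CPM at 8 h and 56.3, 56.2 and 54.1 CPM at 24 h, TYMS, thymidylate synthase, rose from 5.0 ± 0.378 CPM to 59.97 ± 2.36 CPM, and RRM2, the S phase subunit of ribonucleotide reductase, from 26.6 ± 1.85 CPM to 189 ± 10.3 CPM. Their log2 changes were 4.57, 3.58 and 2.82, beside -0.10, -0.13 and -0.02 in parental cells. CTPS1 and GART, which serve CTP and purine synthesis in all phases, changed by -0.50 and -0.49 on the log2 scale. Of 10 tested polyamine genes 6 fell and 1 rose. SMOX, spermine oxidase, fell from 15 ± 1.16 CPM to 1.86 ± 0.289 CPM, ODC1, the first enzyme of the pathway, changed by -0.53, and OAZ2, an antizyme against ODC1, rose by 0.53. ODC1 also fell in parental cells (-0.40). Among 12 SR splicing proteins 3 rose and 4 fell, beside 28.4% and 27.1% of all tested genes. Their median was -0.04, with SRSF12 lowest (-2.14) and SRSF11 the largest rise (0.35). SRSF11 did not pass without 8 h replicate 3 (adjusted p = 0.0502 by edgeR), and library-size scaling gave 6 higher and 2 lower with a median of 0.17.

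Protein-folding genes fell. All 8 subunits of the CCT chaperonin, which folds actin and tubulin, were called lower (median -0.40), from CCT8 (-0.14) to CCT6A (-0.67), against none in parental cells. CCT6A had 471, 456 and 459 CPM at 8 h and 299.9, 284 and 289.6 CPM at 24 h. With library-size or upper-quartile scaling 5 of the 8 passed, and CCT8 turned to 0.06 under the former. Of 20 tested heat shock chaperones 15 fell and 3 rose (median -0.48). HSPA1A, the inducible HSP70, fell from 2502 ± 73.9 CPM to 349 ± 10.4 CPM (log2 -2.84), though reads of its near-identical copy HSPA1B may be divided between them. HSPA8, the constitutive HSP70, had 6789, 6381 and 6641 CPM at 8 h and 2664, 2539 and 2548 CPM at 24 h, and its nucleotide exchange factor HSPH1 changed by -1.59. DNAJB4, an HSP40, was among the 3 that rose (0.69). In parental cells HSPA1A fell by 0.29 (adjusted p = 0.024 by edgeR) and HSPA8 and HSPH1 did not pass.

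The unfolded protein response of the endoplasmic reticulum was mostly lower, with 21 of 22 tested genes lower and 1 higher (median -0.78). The parental cells had 7 lower and 1 higher (median -0.16), and 19 of the 22 had a lower change in MYC-ER cells. XBP1, the factor that drives folding and secretory genes, had 109.6, 108 and 108 CPM at 8 h and 31.4, 30.7 and 30.1 CPM at 24 h (log2 -1.82, SE 0.0432, adjusted p = 6.57e-19 by edgeR). HSPA5 (BiP), the main chaperone of the compartment, fell from 949 ± 29.5 CPM to 401 ± 12.1 CPM. Both also fell in parental cells, by 0.25 and 0.27. CREB3L2, a membrane-bound factor of secretory cells, was the 1 that rose (0.30, adjusted p = 0.00574 by edgeR). Of 28 tested ATF4, serine and amino acid supply genes 14 rose and 7 fell, beside 28.4% and 27.1% of all tested genes. PHGDH, the first enzyme of serine synthesis, rose from 0.740 ± 0.111 CPM to 24.5 ± 0.757 CPM (log2 5.05), while CEBPB, a partner of ATF4, changed by -2.15 and TRIB3, its pseudokinase target, by -1.38.

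Of 17 tested ERK feedback inhibitors and ETV factors 13 fell, 2 rose and the median was -1.37, against 1 and 1 in parental cells (median 0.07). The change was lower in MYC-ER cells for 13 of them. DUSP6, the phosphatase of ERK, lies at chr12:89347235-89352501. It had 184, 176 and 186 CPM at 8 h and 15.2, 11.4 and 12.1 CPM at 24 h. It fell 14.1-fold (log2 -3.82, SE 0.0999, adjusted p = 3.45e-18 by edgeR). SPRY4, a Sprouty inhibitor of receptor signalling at chr5:142310430-142325021, had 108, 109.8 and 114 CPM at 8 h and 7.56, 6.63 and 6.67 CPM at 24 h (log2 -3.99). PHLDA1 changed by -3.15. The 2 that rose were ETV1, an ETS factor, from 0.997 ± 0.256 CPM to 2.41 ± 0.159 CPM, and LIF, a cytokine, from 2.41 ± 0.328 CPM to 6.39 ± 0.193 CPM. ETV1 also rose in parental cells (0.69, adjusted p = 0.0277 by edgeR), and LIF fell there (-0.40).

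Of 24 tested AP-1 and early growth response genes 12 fell and 4 rose (median -0.80), beside 27.1% and 28.4% of all tested genes. FOSL1, the FOS relative most tied to sustained ERK activity, had 78, 68.4 and 78.4 CPM at 8 h and 9.54, 7.87 and 8.82 CPM at 24 h (log2 -3.10, SE 0.0839, adjusted p = 5.73e-18 by edgeR), and FOS changed by -3.01. JUND, the JUN protein of resting cells, rose from 23.8 ± 1.91 CPM to 49.9 ± 6.36 CPM. ATF3 and NR4A1, both induced by stress, rose by 1.90 and 1.25 from about 1 CPM. Among 16 tested EGF receptors, ligands and regulators, 10 fell and 4 rose. The ligands EREG (29.3, 31.2 and 26.5 CPM at 8 h and 3.06, 2.51 and 2.79 CPM at 24 h), HBEGF (log2 -3.00) and TGFA (-2.25) fell, and the ligand NRG4 rose from 0.784 ± 0.112 CPM to 3.49 ± 0.289 CPM. EGFR, the receptor of the first 3, had 502, 524 and 552 CPM at 8 h and 683, 611 and 606 CPM at 24 h (log2 0.27, adjusted p = 0.031 by edgeR). The rise of EGFR did not pass without 8 h replicate 1 (adjusted p = 0.106), without 8 h replicate 2 (0.0708) or without 24 h replicate 1 (0.131).

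**Figure D2:**
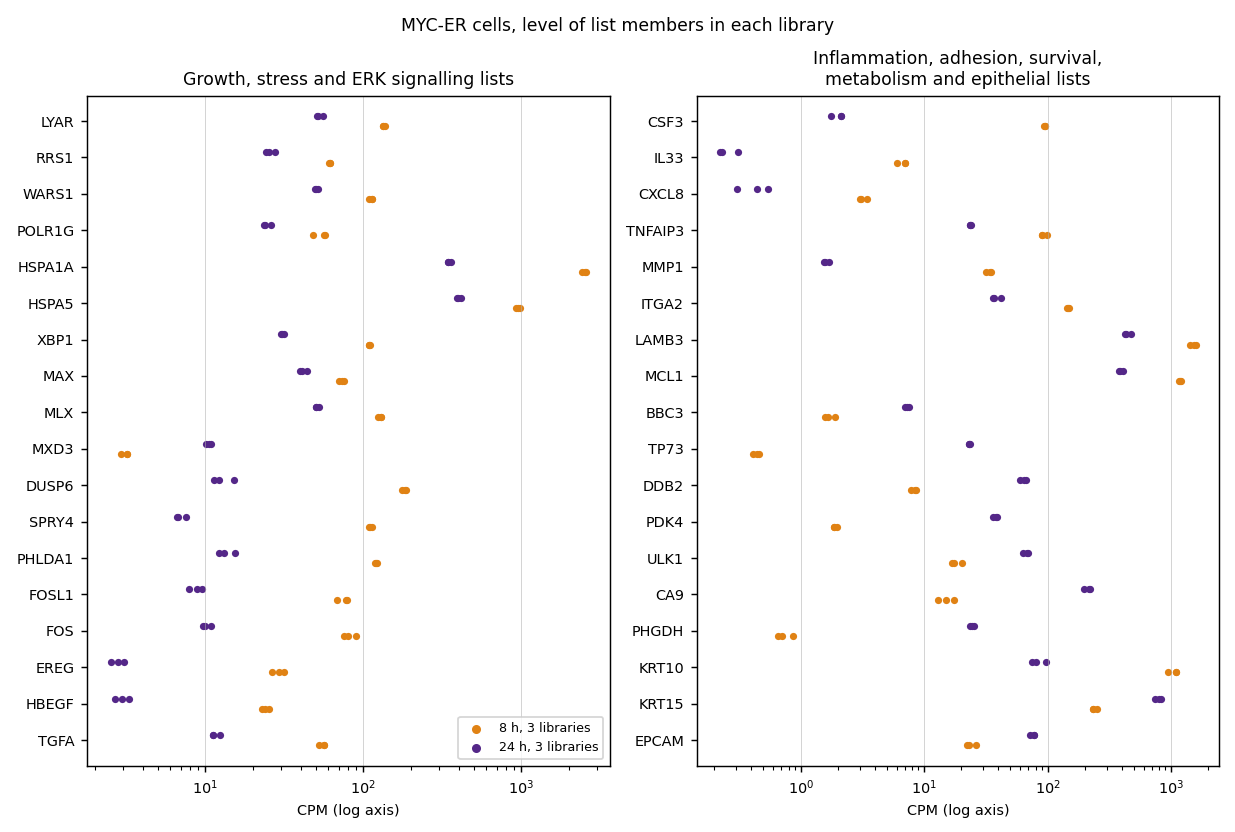
Expression in CPM (log axis) of members of the growth, stress and ERK lists and of the inflammation, adhesion, survival, metabolism and epithelial lists, with 1 point per library at 8 h and at 24 h of 4-OHT in MYC-ER cells. DUSP6 stands at 176 to 186 CPM at 8 h and 11.4 to 15.2 CPM at 24 h, and TP73 at 0.411 to 0.460 and 23.0 to 23.6 CPM.

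Genes of matrix attachment and matrix breakdown were lower. Of 12 tested epithelial integrin subunits 10 fell and none rose (median -1.33), whereas in parental cells 2 rose and none fell (median 0.25). The change was lower in MYC-ER cells for the same number, 10. ITGA2, the collagen-binding alpha subunit, had 145, 148 and 142 CPM at 8 h and 41.7, 36.4 and 37.1 CPM at 24 h (log2 -1.92, SE 0.152, adjusted p = 4.59e-10 by edgeR). ITGB4, the hemidesmosome subunit, had 1348, 1352 and 1514 CPM at 8 h and 1114, 1060 and 992 CPM at 24 h, a smaller fall (-0.41), and rose in parental cells (0.27, adjusted p = 0.0357). ITGA1 and ITGAV did not pass. Of 21 tested matrix metalloproteinase, TIMP and plasminogen genes 16 fell and 3 rose (median -1.19, or -0.50 over the 15 genes with at least 10 counts in every library), against 1 and 4 in parental cells. MMP1, the interstitial collagenase, lies at chr11:102789919-102798160 and had 35, 31.8 and 34.3 CPM at 8 h and 1.70, 1.56 and 1.58 CPM at 24 h (log2 -4.38, SE 0.138, adjusted p = 8.19e-17 by edgeR), beside 16.3 ± 3.53 CPM at 8 h and 17.2 ± 0.152 CPM at 24 h in parental cells. MMP7 changed by -3.57 and TFPI2, a protease inhibitor of the matrix, by -2.98, although TFPI2 rose in parental cells (0.95). MMP2, the basement membrane gelatinase, and PLAT, tissue plasminogen activator, rose by 1.76 and 0.92. Of 29 tested collagens and basement membrane genes 14 rose and 8 fell, beside 28.4% and 27.1% of all tested genes. SPARC and FN1, fibronectin, rose by 1.85 and 1.16 but stayed under 7 CPM, while LAMB3, a chain of the main epidermal laminin, fell from 1516 ± 78.7 CPM to 443 ± 27.8 CPM.

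Inflammatory genes more often fell and interferon-stimulated genes more often rose, while of all tested genes 28.4% rose and 27.1% fell. Of 25 tested cytokines and chemokines 13 fell and 6 rose (median -1.37), against 2 and 3 in parental cells. CSF3, the granulocyte growth factor G-CSF, lies at chr17:40015440-40017813 (ENSG00000108342.12) and had 95.8, 94.1 and 95.6 CPM at 8 h and 2.12, 2.12 and 1.77 CPM at 24 h. It fell 47.5-fold (log2 -5.57, SE 0.115, adjusted p = 7.21e-20 by edgeR) and had 35.2 ± 3.04 CPM at 8 h and 29.7 ± 1.86 CPM at 24 h in parental cells. IL33, an alarmin, had 7.0, 7.06 and 6.06 CPM at 8 h and 0.233, 0.309 and 0.224 CPM at 24 h (log2 -4.71), and CXCL8, which draws neutrophils, changed by -2.88. Of 17 tested NF-kB subunits and feedback genes 15 fell and 2 rose (median -0.90). TNFAIP3 (A20), which shuts the pathway off, had 89.3, 90.2 and 98.4 CPM at 8 h and 23.9, 23.6 and 23.7 CPM at 24 h (log2 -1.96) and rose in parental cells (0.22, adjusted p = 0.0286 by edgeR). BCL3 changed by -2.30 and NFKBIA, the inhibitor that NF-kB induces, fell from 186 ± 8.68 CPM to 106 ± 2.08 CPM. REL, the c-Rel subunit, was one of the 2 that rose (1.02, adjusted p = 0.00985).

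Of 30 tested interferon-stimulated genes 18 rose and 5 fell (median 0.47), against 7 and none in parental cells. IFI27 had 0.470, 0.660 and 0.620 CPM at 8 h and 7.05, 9.60 and 8.81 CPM at 24 h (log2 3.86, SE 0.201, adjusted p = 4.08e-13 by edgeR) and was near 1 CPM in parental cells at both times. ISG20, an RNA exonuclease, went the other way (-1.95).

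Metabolic genes were divided, and of all tested genes 28.4% rose and 27.1% fell. Of 24 tested glycolysis genes 11 rose (7 without 8 h replicate 2) and 8 fell (median 0.13), and scaling by library size alone gave 16 and 3. GAPDH had 3518, 3252 and 3624 CPM at 8 h and 5728, 5661 and 5508 CPM at 24 h (log2 0.70), one of the 5 largest gains in CPM of any gene, and ALDOC, an aldolase, had 32.2, 30.3 and 35 CPM at 8 h and 98.5, 98.6 and 91.2 CPM at 24 h (log2 1.56). The glucose carrier SLC2A3 changed by -1.05, though its reads may be divided with SLC2A14. In the hypoxia list 9 of 24 tested genes rose and 7 fell, and the median of 0.17 was 0.01 without 8 h replicate 2. Library-size scaling gave 12 and 4. CA9, a carbonic anhydrase of hypoxic cells, had 15, 13.1 and 17.4 CPM at 8 h and 219.8, 217 and 198 CPM at 24 h (log2 3.80, SE 0.371, adjusted p = 1.29e-08 by edgeR), and stayed under 4 CPM in every parental mean. EPAS1 (HIF-2 alpha) fell from 526 ± 19.1 CPM to 157 ± 10.8 CPM, and ANGPTL4, a lipase inhibitor, changed by -2.20. Of 31 tested genes of cholesterol and fatty acid synthesis 18 rose and 5 fell (median 0.25), and in parental cells 15 rose and none fell (median 0.22). FADS2, a desaturase, had 65.1, 64.8 and 70.9 CPM at 8 h and 157, 145 and 141 CPM at 24 h (log2 1.14) and SCD, stearoyl-CoA desaturase, had 1837, 1907 and 1958 CPM at 8 h and 2969, 2744 and 2659 CPM at 24 h (0.55).

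Of 45 tested nuclear-encoded subunits 9 rose (5 without 8 h replicate 2) and 4 fell (median 0.06). The counts depend on the fit: library-size scaling gave 32 and 1, upper-quartile scaling 20 and 1, a fit of only the 2 groups compared 19 and 7, and removal of the trend with GC content 14 higher. SDHA, of complex II, had 133, 124 and 130.5 CPM at 8 h and 185, 173 and 171 CPM at 24 h (0.45), and UQCRFS1, of complex III, changed by -0.37. Of the 13 protein-coding genes of the mitochondrial genome 2 fell (5 when only the 2 groups were fitted), MT-ND1 (1830, 2145 and 2247 CPM at 8 h and 1129, 1123 and 1133 CPM at 24 h) and MT-ND2 (log2 -0.59), and the median of -0.15 turned to 0.06 with library-size scaling. The summed share of these 13 in all counts was 5.70% ± 0.51 at 8 h and 5.90% ± 0.15 at 24 h (SD, n = 3), a difference of 0.191 percentage points that is smaller than the SD at 8 h. With 3 libraries against 3 an exact permutation test cannot go below 0.1 (here p = 0.8, two-sided).

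Genes of starvation and of p53 more often rose than fell. Of 17 tested FOXO factors and targets 10 rose and 1 fell (median 0.48), and in parental cells 11 rose and none fell (median 0.30). PDK4, which blocks pyruvate entry into mitochondria, had 1.99, 1.86 and 1.86 CPM at 8 h and 36, 37.9 and 38.7 CPM at 24 h (log2 4.30, SE 0.107, adjusted p = 1.53e-18 by edgeR), beside 0.63 in parental cells. SESN3, an inhibitor of mTORC1, rose by 2.72, and TRIB2, the 1 that fell, changed by -1.52. Among 24 tested lysosome and autophagy genes 7 rose and 9 fell, beside 28.4% and 27.1% of all tested genes. Their median of -0.11 turned to 0.10 with library-size scaling. GABARAPL1 and ULK1, both of autophagosome formation, rose by 2.03 and 1.88, whereas CTSL, a lysosomal protease, fell from 202 ± 10.5 CPM to 96.5 ± 3.26 CPM. Of 23 tested p53 targets and family members 13 rose and 7 fell (median 0.62). TP73, a relative of p53, had 0.441, 0.411 and 0.460 CPM at 8 h and 23.1, 23 and 23.6 CPM at 24 h (log2 5.73), DDB2, a DNA damage sensor, had 8.59, 8.37 and 7.80 CPM at 8 h and 59.2, 64.7 and 66.7 CPM at 24 h (log2 2.94), and GDF15 changed by 3.43. PLK3 was among those that fell (-1.70). TP73 also rose in parental cells (0.70), whereas DDB2 did not pass there (adjusted p = 0.515 by edgeR).

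Of 16 tested BCL2 family genes 4 rose and 8 fell, beside 28.4% and 27.1% of all tested genes. The 4 that rose, each known to promote cell death, were BMF, BBC3, BCL2L11 and BAX. BMF had 0.166, 0.206 and 0.133 CPM at 8 h and 1.81, 1.91 and 2.29 CPM at 24 h (log2 3.57), BBC3 (PUMA) rose from 1.72 ± 0.179 CPM to 7.27 ± 0.243 CPM, and BCL2L11 (BIM) changed by 0.44. MCL1, a survival protein, had 1196, 1176 and 1167 CPM at 8 h and 411, 378 and 389 CPM at 24 h (log2 -1.59, SE 0.0654, adjusted p = 8.12e-15 by edgeR). BMF also rose in parental cells (1.02), and MCL1 did not pass there. BAK1, BOK, BID, BAD, PMAIP1 and HRK, which promote death too, were called lower in MYC-ER cells. BAD and PMAIP1 did not pass with library-size or upper-quartile scaling. BAD also missed the threshold without 8 h replicate 3 (adjusted p = 0.0654 by edgeR) or 24 h replicate 3 (0.0528). PMAIP1 missed it without any single library but 24 h replicate 1 (adjusted p = 0.053 to 0.171 by edgeR) and with at least 10 counts required in every library (0.0528). Of 20 tested NRF2 targets 7 rose and 7 fell (13 and 5 with library-size scaling, and 11 higher when only the 2 groups were fitted), with SLC7A11, the cystine carrier, at 1.42 and OSGIN1 at -2.46.

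Epithelial genes moved in both directions, as did all tested genes (28.4% rose and 27.1% fell). Of 19 tested keratins 9 fell and 4 rose (median -0.53, or -0.88 without 8 h replicate 2 and -1.07 without 24 h replicate 3), against 5 and none in parental cells. KRT10, a keratin of suprabasal cells, had 1100, 951 and 1097 CPM at 8 h and 75, 80.4 and 97.6 CPM at 24 h (log2 -3.64, SE 0.106, adjusted p = 2.19e-17 by edgeR), and also fell in parental cells (-1.34). KRT16 fell from 566 ± 44.8 CPM to 64.8 ± 2.19 CPM, though pseudogenes may share its reads. KRT15, a basal keratin, rose from 239.5 ± 11 CPM to 792 ± 42.2 CPM (log2 1.72). Of 25 tested cornified envelope genes 12 fell and 4 rose. LCE3D, a late cornified envelope protein, had 18.4, 15.1 and 18.3 CPM at 8 h and 0.512, 0.473 and 0.436 CPM at 24 h (log2 -5.19), SPRR2D and IVL, involucrin, changed by -3.55 and -1.63, and FLG, filaggrin, rose from 0.544 ± 0.0621 CPM to 2.29 ± 0.561 CPM. Of 28 tested junction genes 13 fell and 8 rose, and the median of -0.19 turned to 0.02 with library-size scaling. EPCAM had 26.3, 23 and 22.1 CPM at 8 h and 77.8, 77.3 and 72.3 CPM at 24 h (log2 1.67) and CLDN1, of tight junctions, rose by 1.35, while CDH1, E-cadherin, had 189, 181 and 190.3 CPM at 8 h and 119, 109 and 112 CPM at 24 h (log2 -0.72) and PKP2, of desmosomes, changed by -1.22.

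Among 13 tested regulators of epithelial to mesenchymal transition 6 rose and 5 fell, beside 28.4% and 27.1% of all tested genes. SNAI2 (Slug) fell from 102 ± 1.82 CPM to 44.3 ± 1.54 CPM, and FOXC2 had 36.9, 38 and 36.8 CPM at 8 h and 5.25, 3.91 and 4.03 CPM at 24 h (log2 -3.08). Of 25 tested TGF-beta, BMP and ID genes 12 fell and 6 rose (median -0.35). INHBA, the activin A subunit, had 26.2, 25.9 and 25.4 CPM at 8 h and 3.49, 2.83 and 2.25 CPM at 24 h (log2 -3.17) and rose in parental cells (0.85, adjusted p = 0.00169 by edgeR). ID1, a BMP target, fell from 246 ± 10.8 CPM to 67.1 ± 4.42 CPM, and ATOH8 rose by 1.92. Of 15 tested Notch genes 9 rose and 3 fell. NOTCH3 had 21.6, 19.6 and 24.7 CPM at 8 h and 56.3, 48.8 and 48.5 CPM at 24 h (log2 1.22), whereas HES1, a target of the pathway, fell from 34.2 ± 1.88 CPM to 11.1 ± 0.990 CPM. NEURL1B, a ubiquitin ligase that acts on Notch ligands, was among the 12 largest rises of any gene, with 0.383, 0.305 and 0.287 CPM at 8 h and 21.8, 21 and 21.8 CPM at 24 h (log2 6.05, SE 0.124, adjusted p = 7.08e-20 by edgeR). Of 16 tested YAP and TAZ genes 3 rose and 6 fell (3 without 8 h replicate 1 or without 24 h replicate 2), and the median of -0.09 turned to 0.12 with library-size scaling and to 0.01 with upper-quartile scaling. AXL, a receptor kinase, rose from 15.3 ± 0.914 CPM to 46.3 ± 0.962 CPM and WWTR1 (TAZ) fell from 81.9 ± 5.14 CPM to 27.7 ± 0.917 CPM.

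The 12 largest falls with at least 10 CPM in the higher group included several genes already described (CSF3, LCE3D, MMP1, SPRY4 and DUSP6). The first was SAA2-SAA4, a read-through transcript of acute phase serum amyloid genes, with 9.90, 10.3 and 11 CPM at 8 h and 0, 0 and 0.231 CPM at 24 h. Its 24 h counts were 0, 0 and 36, so its log2 change of -7.10 (SE 0.839) rests on 1 library, and reads of the neighbouring genes may be divided with it. PLA2G4E, a phospholipase A2, had 18.2, 16.7 and 18.4 CPM at 8 h and 0.506, 0.562 and 0.442 CPM at 24 h (log2 -5.14). NTSR1, the neurotensin receptor, had 20.1, 20.2 and 22.2 CPM at 8 h and 1.13, 1.17 and 0.884 CPM at 24 h (log2 -4.29). The other 4 were TRPV3 (-3.94), a cation channel of skin cells, FBLN5 (-3.84), an elastic fibre protein, IRAK2 (-3.74), a kinase of interleukin 1 signalling, and TMCC3 (-3.69).

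**Figure D3:**
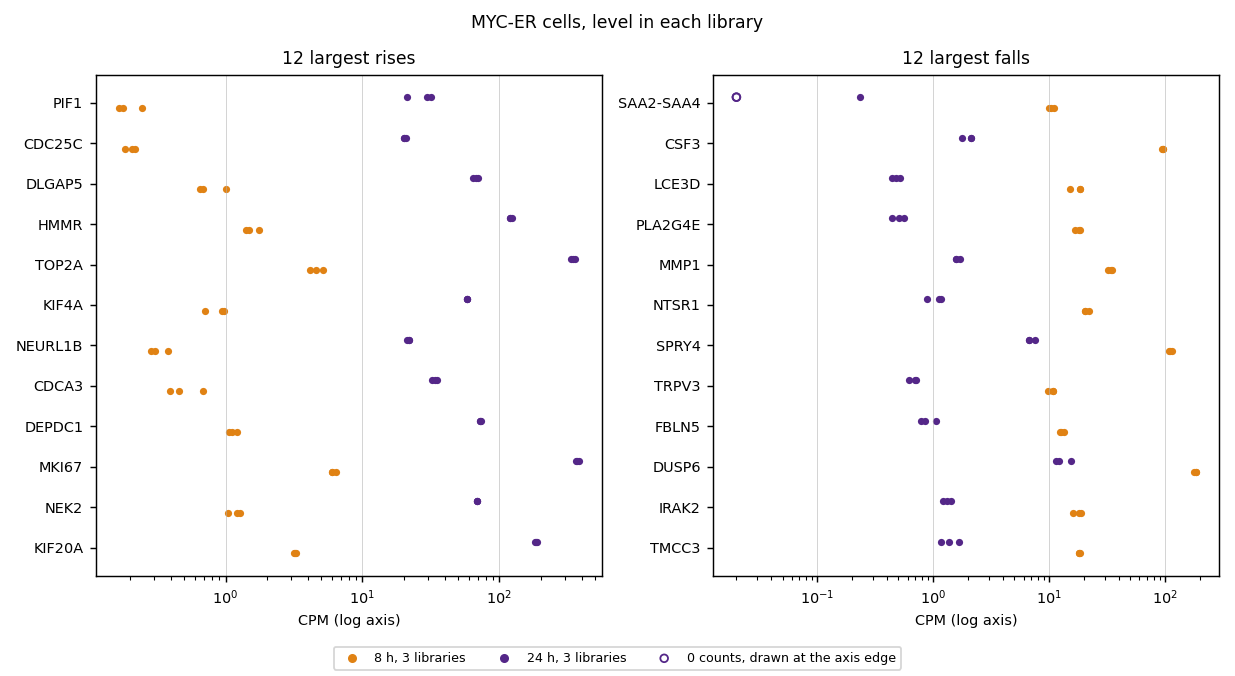
Expression in CPM (log axis) of the 12 largest rises and the 12 largest falls by log2 change among genes with at least 10 CPM in the higher group, with 1 point per library at 8 h and 24 h in MYC-ER cells and open circles at the axis edge for 0 counts. Genes were drawn only if the libraries of the 2 times did not overlap, so the separation follows from the choice. PIF1 stands at 0.167 to 0.246 CPM at 8 h and 21.1 to 31.7 CPM at 24 h.

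In absolute level, after GAPDH and SCD, the largest gains were those of NUCKS1, a chromatin protein (353, 366 and 338 CPM at 8 h and 1093, 962 and 993 CPM at 24 h), DST, a linker of the cytoskeleton, from 254 ± 6.32 CPM to 882 ± 32.9 CPM, and TUBA1B, an alpha-tubulin (1048, 970.1 and 1037 CPM at 8 h and 1678, 1634 and 1604 CPM at 24 h). The largest losses were those of KRT6A, a keratin of activated epidermis (8502, 8230 and 8971 CPM at 8 h and 2580, 2472 and 2481 CPM at 24 h), HSPA8, KRT5, the basal keratin (9955, 9428 and 10530 CPM at 8 h and 7187, 6928 and 7170 CPM at 24 h), TGFBI, a secreted matrix protein (6307, 5947 and 6451 CPM at 8 h and 3667, 3613 and 3624 CPM at 24 h), and ACTB, beta-actin (4824, 4502 and 4828 CPM at 8 h and 2260, 2085 and 2021 CPM at 24 h). KRT6A reads may be divided with KRT6B and KRT6C. The log2 changes of these 5 were -1.77, -1.35, -0.49, -0.78 and -1.15, and none of them passed in parental cells. DST rose in parental cells too (0.71, adjusted p = 0.000209 by edgeR).

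In parental cells the same interval of 4-OHT was followed by a small response. Of the 22158 genes 2424 (10.9%) were called, 1436 higher (6.48%) and 988 lower (4.46%), and 110 (0.496%) were called with a change of 2-fold or more. The called share that was higher was 59.2%, or 50.6% with library-size scaling and 46.3% with upper-quartile scaling. The count of 2424 depended on single libraries: it was 1193, 1574 and 1008 without 8 h replicates 1, 2 and 3, and 1365 and 1134 without 24 h replicates 1 and 3. The change differed between the lines for 10179 genes (45.9%), more positive in MYC-ER cells for 5020 (22.7%) and more negative for 5159 (23.3%). Of the genes called for this difference, 67.5% were more positive with library-size scaling and 61.4% with upper-quartile scaling. PIF1 differed most in the positive direction (log2 difference 7.34, SE 0.282, adjusted p = 6.08e-15 by edgeR), ahead of CDC25C (6.55), NEURL1B (6.19), DLGAP5 (6.17) and CDCA3 (6.14). In the negative direction the first was SAA2-SAA4 (-6.59), ahead of CSF3 (-5.32), LCE3D (-4.95), PLA2G4E (-4.67) and MMP1 (-4.46).

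**Figure D4:**
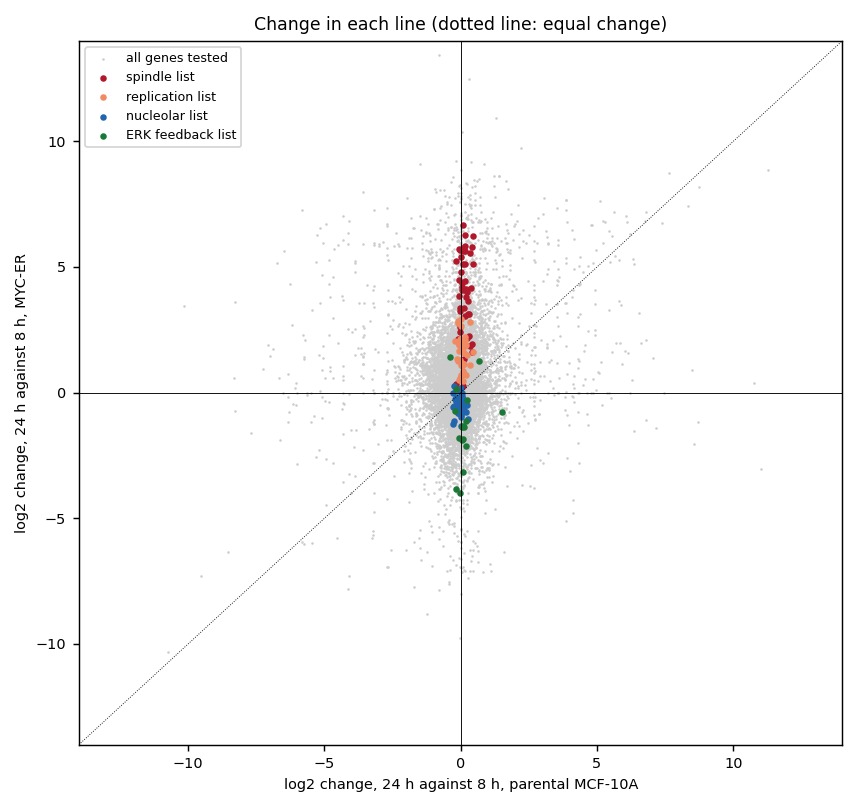
Log2 change from 8 h to 24 h of 4-OHT in parental cells (horizontal axis) against MYC-ER cells (vertical axis) for each tested gene, with members of the spindle, replication, nucleolar and ERK lists in colour. Spindle genes have a median of 0.14 on the horizontal and 4.13 on the vertical axis, and ERK genes of 0.07 and -1.37.

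The levels at the other time points place the 8 h to 24 h change within the course of the treatment. They share the 8 h and 24 h libraries with the comparison above, so they are given side by side and not tested. The spindle list had a mean log2 CPM of 1.53 ± 0.03 before 4-OHT, 2.49 ± 0.03 at 8 h, 6.50 ± 0.02 at 24 h and 4.83 ± 0.05 at 48 h (SD, n = 3), and 6.05 ± 0.05 and 6.18 ± 0.01 in parental cells at 8 h and 24 h. At 24 h the MYC-ER mean thus stood above the parental one, and at 8 h far below it. The replication list ran 2.61, 4.16, 5.78 and 3.80 over the same 4 times, beside 5.43 and 5.48 in parental cells. The nucleolar list was highest at 8 h, at 5.83, 7.22, 6.75 and 5.88, beside 6.69 and 6.64. The ERK list was likewise highest at 8 h (1.05, 4.54, 3.20 and 2.88), with 4.64 and 4.74 in parental cells. Integrin subunits ran 5.39, 6.82, 5.61 and 5.74, so that the 24 h mean lay between those before 4-OHT and at 48 h. The NF-kB list had its lowest mean at 24 h (5.83, 5.31, 4.43 and 6.10), and the unfolded protein response list ended near its 24 h mean (6.56, 7.05, 6.27 and 6.29). FOXO targets and p53 targets were lowest at 8 h, at 5.19, 3.54, 4.38 and 5.07 and at 5.90, 5.04, 5.81 and 6.14. Among single genes, CDC25C had 0.267 ± 0.0592 CPM before 4-OHT and 8.60 ± 0.509 CPM at 48 h, DUSP6 1.46 ± 0.177 CPM and 9.60 ± 0.752 CPM, and LYAR 13.5 ± 1.24 CPM and 15.8 ± 0.802 CPM (SD, n = 3). BMF and KRT10 were highest before 4-OHT, at 39.9 ± 1.59 CPM and 5949 ± 320.1 CPM.

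**Figure D5:**
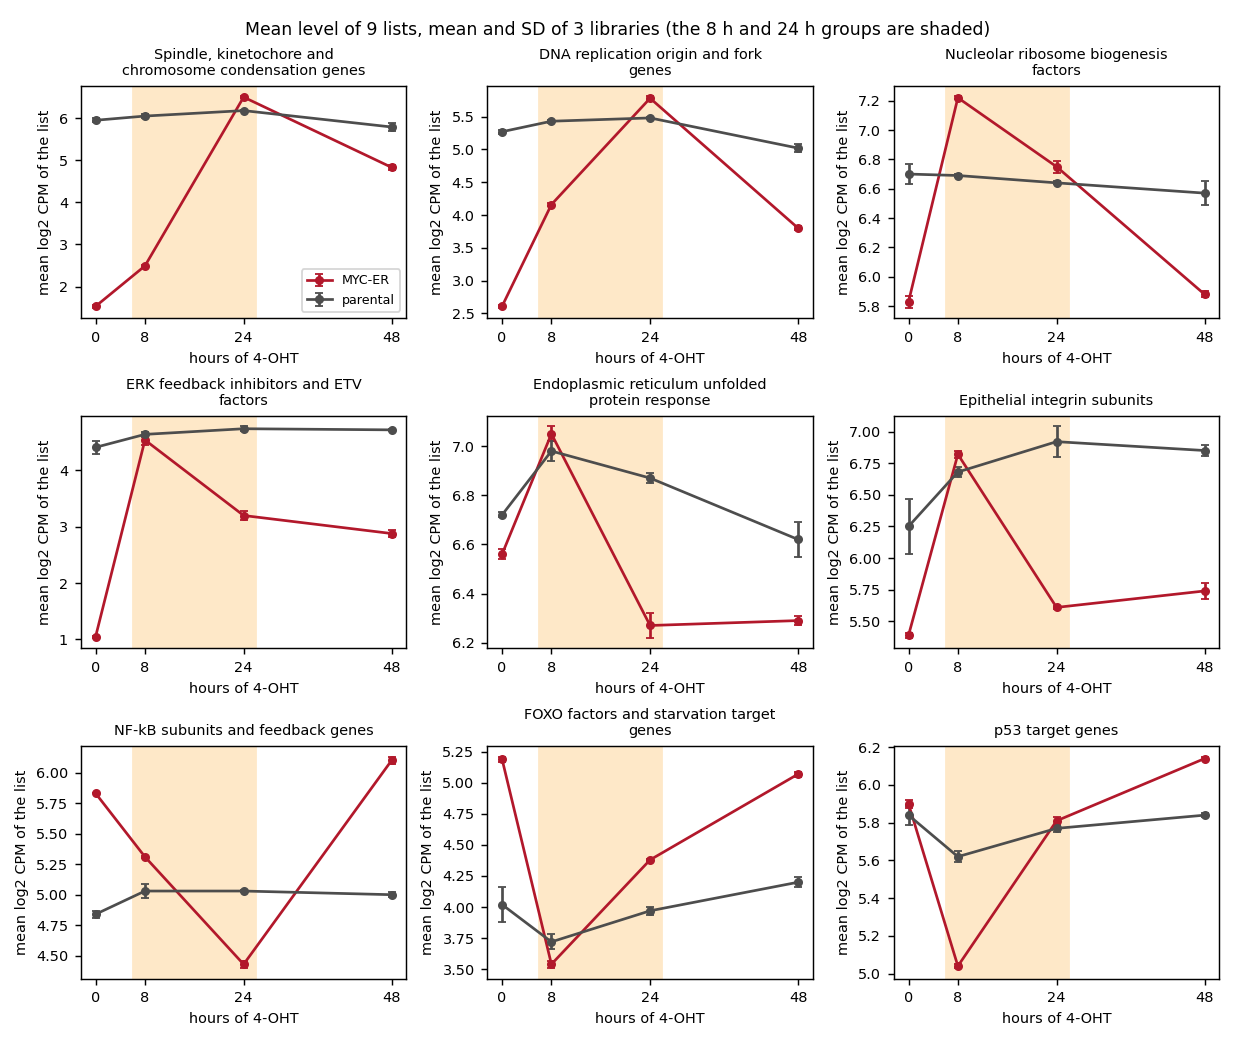
Mean log2 CPM of 9 gene lists (panels) against time on 4-OHT in h, for MYC-ER and parental cells, with points as means of 3 libraries, bars as SD and the 8 h to 24 h interval shaded. The spindle list climbs from 2.49 to 6.50 in MYC-ER cells within the shaded interval while the parental means are 6.05 and 6.18.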

How the data were processed

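Poly(A)-selected RNA was sequenced from 24 libraries of parental MCF-10A cells and their MYC-ER derivative. Per the submitters' processing notes the tools were Trimmomatic 0.39, STAR and StringTie 2.1.3b, with the genome build GRCh38. The role and order of these tools, the annotation and the strand setting are not given in the sources used here. The authors deposited 1 table of estimated counts for 60668 genes, whole numbers not normalized, which were used as they stand. Gene positions and promoters came from RefSeq (GRCh38.p14).

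edgeR 4.0.16 (R 4.3.3) fitted all 8 groups with TMM scaling. filterByExpr kept 22158 genes, and quasi-likelihood F tests were adjusted by Benjamini-Hochberg at 0.05 over all of them. CPM used TMM-scaled totals, and log2 CPM had a prior count of 2. The fit's common biological variation (BCV) was 0.151. On simulated data with this design, 68 of 100 genes changed 1.5-fold and 93 of 100 changed 2-fold were recovered. There were 7 false calls among the unchanged genes of the 22158 simulated. The changed genes had a mean of at least 100 counts, and all others were equal between groups. Recovery of genes with fewer counts, and false calls when many genes change, were not measured. Alternatives were DESeq2 1.42.0, other scalings and filters, a GC correction, a replicate block and each replicate left out. The members and lists were chosen with earlier results of these data known. Named genes were, among called genes with at least 10 CPM in the higher group and no overlap, the 12 largest rises and falls, the 5 largest CPM gains and losses, the 5 largest differences between the lines each way, MYC and ESR1, and list members led by the largest called changes with at least 1 CPM. Floors cover counting error only, whereas SDs and SEs include the spread between libraries.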

Additional observations from a re-analysis of the deposited data

Results flagged for a closer look

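The change from 8 h to 24 h differed between MYC-ER and parental cells, by a test of the difference itself (edgeR's quasi-likelihood test), for 10179 of 22158 genes (45.9%). The cell cycle genes PIF1 (log2 difference 7.34), CDC25C (6.55), DLGAP5 (6.17) and CDCA3 (6.14), with NEURL1B (6.19), a ubiquitin ligase of Notch ligands, stood at 11.5 to 50.8 CPM in both parental groups and under 1 CPM on average in MYC-ER cells at 8 h. In the other direction were SAA2-SAA4 (-6.59), CSF3 (-5.32), LCE3D (-4.95), PLA2G4E (-4.67) and MMP1 (-4.46).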

How the results depend on the processing

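Called genes in MYC-ER cells numbered 12296, and 10700 (at least 10 counts in every library) to 12832 (GC trend removed) with other scalings, filters and fits. The counts of at least 2-fold changes fell to 2994 in MYC-ER cells and 73 in parental cells when at least 10 counts were required in every library, which left 16056 genes. With each replicate left out the MYC-ER counts were 11267 to 11698 called, 5652 to 5965 higher, 5551 to 5733 lower and 4429 to 4680 changed at least 2-fold. For parental cells they were 1008 to 1928, 632 to 1234, 376 to 694 and 62 to 109, and for the difference between the lines 9402 to 9955, 4580 to 4893, 4822 to 5070 and 3918 to 4226. Parental calls also moved with the method: 630 lower with no filter, 3668 called and 1618 lower with the DESeq2 Wald test, and 4579 called, 2603 higher and 1976 lower when only the groups compared were fitted. The cause was not tested. With library size alone 3356 genes had a lower change in MYC-ER than in parental cells, and the split of MYC-ER calls was 8595 higher and 4078 lower (upper quartile: 7384 and 4980).

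Library-size scaling reversed the medians of the mitochondrial genome (0.06), lysosome (0.10), junction (0.02) and YAP and TAZ (0.12) lists and the change of CCT8 (0.063), and upper-quartile scaling that of YAP and TAZ (0.01). When only the groups compared were fitted, the median of the EMT list was -0.08, against 0.17 in the main fit. That of the endothelial markers was then -1.99, against 2.57 in the main fit. Both were the same with and without the block, over fewer tested members. The difference in the share of all mitochondrial genes, 0.25 percentage points, was -0.0693 without MYC-ER 8 h replicate 1 and up to 0.418 without another. Over 186 named genes, 2913 of 2967 alternative values kept their direction and side of the threshold. These genes were chosen largely for their called changes in the same libraries. The choice favoured this share, which does not describe other genes. Same-numbered libraries of the 2 MYC-ER groups did not deviate together (correlations -0.082, -0.489 and -0.147 over 9680 genes). Differently numbered pairs had correlations of -0.229 to 0.339, and a block by number does not remove such shared deviations. The replicate block was therefore a check only, with 12071 calls in MYC-ER cells, 2147 in parental cells and 9937 differences.

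At this depth 3 counts equal 0.0183 to 0.0208 CPM. Listed genes at 0 counts in all 3 libraries of a group have at most a bound for their change, as XAF1 (at least 6.74-fold higher at 24 h), and MMP13, CCL2 and COL5A1 have none, being at or under the floor in both groups. With CXCL5 at its bound and CCL2 at no change, the median of the cytokine list was -1.20. With H1-5 and H3C2 at theirs, that of the histone list was 2.02, and with PRRX1 at its bound that of the EMT list was 0.01.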
